A study of Mus musculus with 15 samples.

Results

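Long intergenic noncoding RNA (lincRNA) genes are transcribed from between protein-coding genes and give RNAs that are not known to be translated. The genes described here are those of the GENCODE M21 type lincRNA whose mean level over 15 mouse heart libraries was at least 1 FPKM, that is, sequenced fragments scaled by transcript length and by the size of the library, a level corrected for transcript length and library size. There were 113 such genes, out of 189 lincRNA genes with a transcript listed in all 15 files and out of 12380 genes in all. The members were chosen by their mean FPKM, so levels over the 15 libraries are given as a description. The 2 members nearest the limit from above were D930016D06Rik and E130102H24Rik, both at a mean of 1.00 FPKM, and the 2 lincRNA genes nearest it from below were Gm29107 at 0.994 FPKM and Gm29650 at 0.976 FPKM.

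The hearts came from male C57BL/6 mice, and no genetic change is named for any group. Control mice received neither agent, as far as the labels say. AngII mice received angiotensin II (AngII), the vessel-narrowing hormone of the renin system, which drives growth and scarring of heart muscle. AngII+QDG mice received AngII together with QDG, an agent that the labels name by these letters alone. Each group had 5 libraries, all from total RNA depleted of ribosomal RNA, and the whole heart tissue was used without sorting of cells. The 3 comparisons ask how these RNAs differ with AngII, with QDG on top of AngII, and with both against neither.

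LincRNAs work in several ways. Some stay in the nucleus and build or fill nuclear bodies, as Neat1 does for paraspeckles and Malat1 in nuclear speckles. Others bind and hold proteins or microRNAs in the cytoplasm, and others carry small RNAs (microRNAs or small nucleolar RNAs) inside their own transcript. In the heart, lincRNAs such as Bvht and H19 are known from cardiac cell specification and from growth control.

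Facts about the libraries bear on every value below. Low FPKM values came in whole multiples of a step, and counting each step as 1 fragment lets depth be compared: the deepest library held 1.52 times the fragments of the shallowest. All 8 cardiomyocyte markers were measured, with a summed level of 25844 to 44313 FPKM over the libraries. The summed level of 7 fibroblast markers ranged over 443 to 699 FPKM in Control, against 612 to 883 FPKM with AngII and 626 to 879 FPKM with AngII+QDG, and 2 of them (Pdgfra and Lum) were called higher in AngII+QDG than in Control. The endothelial marker Kdr (log2 change 0.83, limma adjusted p = 0.0342) and the macrophage marker Mrc1 (0.85, adjusted p = 0.0407) were also called higher in that comparison, and the hemoglobin gene Hba-a2 lower (-2.78, adjusted p = 0.0282). Mrc1 went against its list: the 5 macrophage markers had a median log2 change of -0.11 there. Their sum averaged 85.7 FPKM in Control and 73.8 FPKM in AngII+QDG. The 5 endothelial markers had a median of 0.23. In AngII against Control the pericyte marker Rgs5 (0.60, adjusted p = 0.0402) and the cardiomyocyte calcium channel gene Ryr2 (1.00, adjusted p = 0.0220) were called higher. The 8 cardiomyocyte markers had a median log2 change of 0.01 in AngII, and their sum averaged 37070 FPKM in Control and 32357 FPKM in AngII. The 6 smooth muscle and pericyte markers summed to 132 to 239 FPKM for Control, 227 to 350 FPKM for AngII and 180 to 286 FPKM for AngII+QDG. The sum of 5 red blood cell genes averaged 7764 FPKM in Control, 5367 FPKM with AngII and 5159 FPKM with AngII+QDG, with ranges that overlap. The part of these markers in any lincRNA difference was not tested, and in whole tissue a smaller number of cells of a type and less RNA in each cell cannot be told apart. Control libraries also gave relatively more signal to short transcripts: the mean log2 level of protein-coding transcripts under 1000 nt minus that of transcripts of at least 3000 nt, called the short-against-long balance here, lay between 0.98 and 1.40 for Control, between 0.77 and 0.96 for AngII and between 0.64 and 0.89 for AngII+QDG. The Control range did not overlap either of the others, so this balance and the treatment cannot be told apart. Control 3 and Control 5 had the highest balance, and Control 5 also listed 16.02% of transcripts at 0, against 2.51 to 8.78% in the other libraries.

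Few lincRNA genes differed between AngII and Control. By limma at a Benjamini-Hochberg adjusted p under 0.05 over all 12238 tested genes, 5 of the 113 lincRNA genes were higher in AngII (Gm7292, Gm5532, Gm26809, Gm44899 and Gm12295) and 2 were lower (Snhg20 and Gm49207). That is 6.19% of the members against 13.5% of all tested genes (12.1% higher and 1.43% lower). The median log2 change was 0.04 for the members and 0.21 for all tested genes. Fold changes here are on the log2(FPKM + 1) scale, which understates the change of genes at low levels.

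In AngII+QDG against Control, 8 members were higher (Gm7292, Gm5532, Gm26809, Norad, 4930429F24Rik, Gm6416, Oip5os1 and Dubr) and 3 were lower (Gm4544, H19 and Gm49207). This was 9.73% of the members, against 18.6% of all tested genes (15.5% higher and 3.15% lower). The member median was 0.00 and that of all genes 0.18 on the log2 scale. Gm7292, Gm5532 and Gm26809 were called higher in both comparisons and Gm49207 lower in both, and both comparisons use the same Control libraries. In all, 14 different lincRNA genes were called in at least 1 comparison. Gm7292, Gm12295 and Gm6416 had Control means under 1 FPKM and reached the level limit only through the treated libraries. Their calls as higher are therefore not independent of the choice of members. The AngII+QDG files list another set of transcripts than the Control and AngII files, and only transcripts in both sets were used.

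The split into higher and lower moved with the scaling between libraries. Quantile normalization moved the median of all genes from 0.21 to -0.02 in AngII and from 0.18 to -0.03 in AngII+QDG. After it 2 members were higher and 7 lower in AngII, while 4 were higher and 10 lower with QDG added. After each library was shifted to the same median, the counts were 2 and 8 in AngII, and 3 and 12 with QDG added. The member median then stood at -0.24 in AngII and -0.25 to -0.27 in AngII+QDG. With that balance as a covariate, 0 members were called in any comparison, and over all tested genes 2 were called in each comparison against Control. Without Control 3 and Control 5, 3 members were called higher and 0 lower in AngII, and 3 higher and 2 lower in AngII+QDG. Of all tested genes, 6.95% in AngII and 14.6% in AngII+QDG were called after quantile normalization, and 9.57% and 18.7% after median scaling. Without Control 3 and Control 5 these shares were 1.49% and 8.82%. In AngII the members' share was not under that of all genes after quantile normalization or without those Control libraries.

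Norad, listed by GENCODE M21 as 2900097C17Rik, is an abundant cytoplasmic lincRNA known for binding Pumilio proteins, RNA-binding proteins that shorten the life of their targets. It is a single-exon gene of 4915 nt on the minus strand at chr2:156388065-156392979 (GRCm38). Gm7292, a lincRNA gene at chr6:117716342-117718868 on the plus strand, is a near copy: over 2537 aligned nt the sequences were 99.2% identical, with 9 mismatches and 12 gap bases. A stretch of 60 nt of each is shown to let the likeness be seen, with 2 differing bases, and the capitals mark the Pumilio motif TGTANATA.
Norad: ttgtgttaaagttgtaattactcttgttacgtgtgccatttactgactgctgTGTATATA
Gm7292: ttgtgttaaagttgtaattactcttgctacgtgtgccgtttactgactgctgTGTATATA
The Norad stretch is bases 1471 to 1530 of its transcript and the Gm7292 stretch bases 1444 to 1503. Searched on the transcript strand only, Norad held 11 such motifs (2.24 per kilobase) and Gm7292 held 9. Among 8905 GENCODE transcripts of 4000 to 6000 nt, Norad's included, 41.0% held at least 1 such motif and 3 held 11 or more. A match is a description of the letters and not of binding.

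Norad stood at 23.96, 20.4, 20.5, 30.4 and 16.8 FPKM in Control replicates 1 to 5. AngII libraries held 29.0, 30.8, 26.4, 27.3 and 27.6 FPKM, and AngII+QDG libraries 34.0, 32.7, 31.6, 28.8 and 29.8 FPKM. The treated groups were narrow and high, and Control 4 lay inside their range. Norad rose in AngII+QDG against Control by 0.49 ± 0.13 on the log2 scale (SE, limma adjusted p = 0.0176), a ratio of group means of 1.40. In AngII against Control its log2 change was 0.34 (adjusted p = 0.0825), which did not pass. Without Control 3 and Control 5 the rise in AngII+QDG was 0.34 and no longer passed (adjusted p = 0.0791), and with the balance as a covariate it was 0.03 (adjusted p = 0.971). The call also ended after median scaling (log2 change 0.22, adjusted p = 0.0968) and with only the 2 groups compared in the fit (adjusted p = 0.0579).

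Gm7292 was far lower than Norad and changed more. Its levels were 0.538, 0.333, 0.164, 0.864 and 0.196 FPKM in Control, 1.92, 2.98, 1.22, 1.65 and 1.93 FPKM in AngII, and 3.604, 2.20, 2.31, 2.69 and 2.75 FPKM in AngII+QDG. No Control library overlapped either treated group. The ratio of group means was 4.63 for AngII over Control and 6.47 for AngII+QDG over Control. The log2 change was 1.05 ± 0.17 in AngII (limma adjusted p = 0.00659) and 1.40 ± 0.17 in AngII+QDG (adjusted p = 8.26e-04), the smallest p among the members in both comparisons. As a share of the Norad level, Gm7292 stood at 1.74 ± 0.82% for Control, 6.80 ± 1.84% for AngII and 8.64 ± 1.59% for AngII+QDG (SD, n = 5). Reads from near-identical copies can be split between them, so the level of Gm7292 apart from Norad is uncertain. Gm7292 was summed from transcripts of 995 and 2527 nt. The 2527-nt one, aligned to Norad above, was at 0 in Control 2, Control 3 and AngII 3, where the 995-nt one alone gave the level. Both Gm7292 calls held with each single library left out (adjusted p 0.00214 to 0.0208 in AngII and 3.05e-04 to 0.00397 in AngII+QDG) and without Control 3 and Control 5. Gm7292 reached the level limit only through the treated libraries, so its calls, these fits and the lack of overlap are not independent of the choice of members. With the balance as a covariate the log2 changes were 0.39 (adjusted p = 0.915) and 0.68 (adjusted p = 0.489).

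Oip5os1, listed as 1700020I14Rik at chr2:119594297-119607502 on the plus strand and also called Cyrano, is known for a highly conserved site that pairs with the microRNA miR-7 and leads to its decay. The site was found in the 8300-nt transcript at bases 2935 to 2959, and is shown with the microRNA because that pairing is what the gene is known for. Capitals mark the seed of the microRNA (bases 2 to 8) and the bases of the site opposite it.
mmu-miR-7a-5p: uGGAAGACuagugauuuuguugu
Oip5os1 site: acaacaaaatcaccaatGTCTTCCa
Of the 23 bases of the microRNA, 22 paired with the site, with 2 bases of the site left out in a loop. The transcript held 2 matches to the seed in all. The microRNA sequence is from RefSeq (GRCm38.p6) and the site from the GENCODE M21 transcript.

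Oip5os1 stood at 8.95, 10.7, 11.6, 23.5 and 13.7 FPKM in Control, at 17.2, 28.9, 13.8, 17.01 and 15.996 FPKM in AngII and at 43.3, 15.7, 29.6, 35.4 and 21.2 FPKM in AngII+QDG. The AngII+QDG libraries spread widely, and 2 of them lay under the highest Control library. The log2 change in AngII+QDG against Control was 1.02 ± 0.29 (limma adjusted p = 0.0253), and in AngII against Control 0.44 (adjusted p = 0.302). The call ended without Control 1, Control 2, Control 3, AngII+QDG 1 or AngII+QDG 4, each left out alone (adjusted p up to 0.0700), and without Control 3 and Control 5 together (adjusted p = 0.0962). It also ended after quantile normalization (adjusted p = 0.0522), after median scaling (adjusted p = 0.0736), and with only those 2 groups in the fit (adjusted p = 0.0549). The 8300-nt transcript that holds the miR-7 site made up 88.5 ± 9.34% of the gene's FPKM in Control, 99.0 ± 1.88% with AngII and 86.7 ± 10.504% with both agents.

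Malat1 and Neat1, neighbours on chromosome 19, are the long nuclear-body RNAs among the members. Malat1, at chr19:5795690-5802672 on the minus strand, concentrates in nuclear speckles, where splicing factors are stored. It stood at 21.4, 21.9, 11.8, 29.2 and 15.1 FPKM in Control and at 35.7, 54.4, 34.3, 45.3 and 38.7 FPKM in AngII. The AngII libraries all lay above the Control libraries, at a ratio of group means of 2.10. AngII+QDG libraries held 84.1, 49.8, 48.6, 0.882 and 72.4 FPKM, so 4 of them were high and AngII+QDG 4 was lower than every Control library.

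That 1 library decided the test. With all 15 libraries in the fit, the log2 change of Malat1 in AngII against Control was 1.07 ± 0.78 (limma adjusted p = 0.358), because all groups share 1 estimate of spread. Without AngII+QDG 4, the same change of 1.07 had a standard error of 0.23 and passed (adjusted p = 0.0213), as it did with only Control and AngII in the fit (adjusted p = 0.0427). For AngII+QDG against Control, the log2 change was 0.64 (adjusted p = 0.603) with all libraries and 1.66 ± 0.24 (adjusted p = 0.00387) without AngII+QDG 4, where the other 4 libraries averaged 63.7 ± 17.4 FPKM. Fitted with the balance covariate, the changes were -0.22 (adjusted p = 0.985) and -0.79 (adjusted p = 0.894). Malat1 was measured as 1 transcript of 6983 nt, so a fall in that transcript could not be set against another of the same gene.

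Neat1, at chr19:5824708-5845478 on the minus strand, is the architectural RNA of paraspeckles, and its longest transcript is the one known to build them. It stood at 31.6, 30.0, 16.9, 45.5 and 50.4 FPKM in Control, 24.6, 39.6, 28.7, 25.1 and 20.9 FPKM in AngII and 43.5, 60.6, 53.8, 24.2 and 39.4 FPKM in AngII+QDG. The groups overlapped in all 3 comparisons. Its log2 change was 0.62 ± 0.29 in AngII+QDG against AngII (limma adjusted p = 0.999), -0.26 in AngII against Control (adjusted p = 0.556) and 0.36 in AngII+QDG against Control (adjusted p = 0.404). None of these passed.

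The 3 Neat1 transcripts did not share out evenly. The transcript of 20771 nt held 56.3 ± 18.4% of the gene's FPKM in Control, 78.1 ± 2.7% with AngII and 79.3 ± 5.2% with both agents, and the one of 3004 nt held 37.2 ± 19.5%, 15.9 ± 1.6% and 14.04 ± 4.99%. Control 5 stood apart with 71.1% of its Neat1 FPKM on the 3004-nt transcript, at 35.8 FPKM. In that library the 20771-nt transcript was at 12.6 FPKM, the second lowest of all 15. These transcripts overlap in the genome, so their split is an estimate of the authors' quantification, and Control 5 is also the library with the most transcripts at 0. Whether the split differs between groups was not tested.

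**Figure D1:**
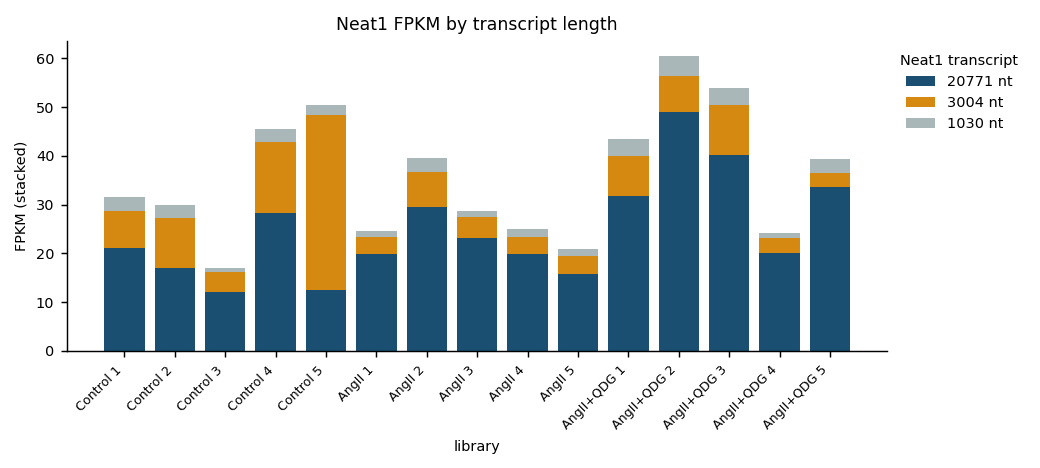
Stacked bars give Neat1 FPKM in each library by transcript, with the 15 libraries on the x axis and FPKM on the y axis. The 20771-nt transcript is the largest part in every library except Control 5, where the 3004-nt transcript reached 35.8 FPKM.

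The RNA levels of genes for proteins of the nuclear bodies were read from lists that hold no lincRNA, and no protein was measured. These lists were chosen with earlier results of these data known. Of 18 paraspeckle protein genes, 3 rose in AngII against Control (Hnrnpk, Rbmx and Hnrnpm), 0 fell and 15 did not pass. With both agents against Control 8 rose, among them Tardbp, the gene of an RNA-binding protein, from 4.59 to 13.6 FPKM (log2 change 1.39, limma adjusted p = 0.00213). The median log2 change over the list was 0.41 and 0.47, against 0.21 and 0.18 for all tested genes. Of 20 nuclear speckle protein genes, 7 rose in AngII and 10 in AngII+QDG, and 0 fell, with a median log2 change over the list of 0.51 and 0.62. Those that rose included the splicing factor Srsf5, from 5.96 FPKM in Control to 10.4 FPKM in AngII (log2 change 0.75, adjusted p = 0.0189) and 13.7 FPKM in AngII+QDG (log2 change 1.11, adjusted p = 0.00208), and Son, a scaffold of the speckle, with log2 changes of 0.78 (adjusted p = 0.0276) and 1.13 (adjusted p = 0.00445). Of 19 measured genes of nuclear RNA decay, 3 rose in AngII (Dis3, Smg1 and Smg6). In AngII+QDG 4 rose, among them the kinase Smg1 (log2 change 0.96, adjusted p = 0.00332), and 1, the exosome subunit Exosc4, fell by 0.36 (adjusted p = 0.0308), with a median log2 change over the list of 0.28 and 0.27. Of all tested genes 12.1% rose in AngII and 15.5% in AngII+QDG. Among those with a longest transcript of at least 3000 nt, 19.7 and 25.4% rose, with a median log2 change of 0.34 in both comparisons. The list genes were not matched to other genes for length. Between AngII+QDG and AngII, 0 genes of these 3 lists passed.

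These counts moved with the setting. Under median scaling the paraspeckle list had 0 higher genes in AngII and 5 with QDG added, the speckle list 2 and 7, and the decay list 0 and 1, beside 1 and 2 lower. Without Control 3 and Control 5, 0 genes of the 3 lists were called in AngII, and 3, 7 and 3 were higher with QDG added. With the balance covariate 0 were called, and the medians were 0.07, 0.10 and -0.06 in AngII and 0.16, 0.21 and -0.12 with QDG added.

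H19, an imprinted gene at chr7:142575529-142578143 on the minus strand, is expressed from the maternal allele, is high in fetal tissue and carries miR-675 in its first exon. It stood at 12.2, 9.12, 13.2, 9.72 and 9.04 FPKM in Control, 8.88, 8.33, 10.55, 6.47 and 6.13 FPKM in AngII and 7.41, 4.97, 6.16, 5.61 and 6.25 FPKM in AngII+QDG. All AngII+QDG libraries lay below all Control libraries, and AngII overlapped both. Against Control, H19 in AngII+QDG fell by 0.71 ± 0.16 on the log2 scale (limma adjusted p = 0.00891), a ratio of group means of 0.571. In AngII against Control its log2 change was -0.37 (adjusted p = 0.121), and in AngII+QDG against AngII -0.34 (adjusted p = 0.999). The call held with each library left out (adjusted p up to 0.0227) and without Control 3 and Control 5 (log2 change -0.68, adjusted p = 0.0326). With the balance as a covariate the change was of like size, -0.67 ± 0.27, and did not pass (adjusted p = 0.698).

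Both neighbours of the H19 domain that were measured also had lower means in AngII+QDG than in Control. Whether they change together with H19 was not tested, and their log2 changes are from the fit of all 15 libraries only. Igf2, the paternally expressed growth factor of the same domain, stood at 10.4 FPKM in Control, 9.40 FPKM with AngII and 8.04 FPKM with both agents, with a log2 change of -0.35 in AngII+QDG against Control that did not pass. Mrpl23, a mitochondrial ribosomal protein gene 34782 nt away, fell by 0.34 ± 0.11 in AngII+QDG against Control (limma adjusted p = 0.0451), from 79.0 to 62.1 FPKM. The 2286-nt transcript made up 79.1 ± 10.9% of H19 FPKM for Control, 81.8 ± 8.3% for AngII and 78.0 ± 2.7% for AngII+QDG.

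MicroRNAs lie inside 5 members on the same strand: H19, Snhg20, 2900076A07Rik, 6720427I07Rik and E130102H24Rik. Their mature sequences (RefSeq, GRCm38.p6) are shown with the seed, bases 2 to 8, in capitals, because the seed sets which messages a microRNA pairs with. The libraries measure the host transcripts and not the mature microRNAs.
mmu-let-7a-5p: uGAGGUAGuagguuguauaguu
mmu-let-7f-5p: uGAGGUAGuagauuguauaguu
mmu-let-7d-5p: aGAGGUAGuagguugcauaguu
mmu-miR-675-5p: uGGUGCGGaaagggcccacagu
mmu-miR-675-3p: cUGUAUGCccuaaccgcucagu
mmu-miR-6516-5p: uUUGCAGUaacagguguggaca
mmu-miR-1839-5p: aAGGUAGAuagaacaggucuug
mmu-miR-101a-3p: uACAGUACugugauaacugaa
The first 3 come from 6720427I07Rik and share the let-7 seed GAGGUAG. The seed AGGUAGA of miR-1839-5p is not the let-7 seed, and among the 8 sequences shown each of the other seeds occurs once.

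6720427I07Rik, at chr13:48532905-48546500 on the minus strand, holds the let-7a-1, let-7f-1 and let-7d hairpins; let-7 microRNAs are abundant in adult heart. It was level across the groups, at 1.57 ± 0.30 FPKM for Control, 1.64 ± 0.36 FPKM for AngII and 1.75 ± 0.23 FPKM for AngII+QDG (SD, n = 5), and its log2 changes of 0.04, 0.06 and 0.10 in the 3 comparisons did not pass. 2900076A07Rik, the host of miR-1839, had means of 1.39, 2.43 and 2.12 FPKM, with Control libraries from 0.105 to 2.80 FPKM, and did not pass. E130102H24Rik, the host of miR-101a, was at 0 FPKM in 5 libraries (Control 4, AngII 4, AngII 5, AngII+QDG 3 and AngII+QDG 4) and at 0.493 to 2.82 FPKM in the other 10.

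Snhg20, the host of miR-6516 at chr11:117076008-117078955 on the plus strand, is by its name also a small nucleolar RNA host gene, which was not checked here. It stood at 10.2, 15.6, 12.3, 14.9 and 13.2 FPKM in Control, 10.51, 7.54, 2.52, 9.39 and 1.83 FPKM in AngII and 11.6, 12.8, 12.6, 9.23 and 8.27 FPKM in AngII+QDG. AngII 3 and AngII 5 were the lowest of all 15 libraries. In AngII against Control it fell by 1.16 ± 0.34 on the log2 scale (limma adjusted p = 0.0387), and its change in AngII+QDG against AngII was 0.89 (adjusted p = 0.999). The call ended without AngII 2, AngII 3, AngII 5, Control 2, Control 3 or Control 5 (adjusted p up to 0.0806), and without AngII 3 or AngII 5 the fall was smaller, down to 0.87. The other members listed as small nucleolar RNA hosts did not pass in any comparison. Snhg6 had means of 23.2, 20.6 and 21.3 FPKM, Snhg12 of 4.19, 4.13 and 3.96 FPKM, Snhg18 of 4.66, 4.49 and 3.76 FPKM and Epb41l4aos of 10.1, 8.26 and 8.17 FPKM in Control, AngII and AngII+QDG.

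Bvht (Braveheart), known for its part in cardiac lineage commitment in the mouse, stood at 8.25 to 14.1 FPKM in Control, 8.66 to 14.03 FPKM in AngII and 7.24 to 11.5 FPKM in AngII+QDG. The groups overlapped, and the log2 changes of -0.11, -0.21 and -0.31 (AngII against Control, AngII+QDG against AngII, AngII+QDG against Control) did not pass. Gm14005, which RefSeq names Morrbid and which is known from myeloid cells, where it acts on the gene for the death factor Bcl2l11 beside it, had means of 2.99, 3.24 and 1.87 FPKM and did not pass either. Of 78 names on a list of well-known long noncoding RNAs, 32 were of lincRNA type in GENCODE M21 under the name listed. Of these 32, 10 were members, 3 were measured under the level limit and 19 had no transcript in all 15 files. A further 11 names had no gene of that name there. Norad, Oip5os1 and Morrbid are among those 11 and are members under other names. Norad was also listed as 2900097C17Rik and is in that form already among the 10 members. Meg3, an imprinted lincRNA, was among the 3 under the limit, at 0.398 FPKM.

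Most of the other called genes carry provisional names. Gm5532, at chr1:155520173-155527143 on the minus strand, was the most abundant lincRNA called in AngII. It stood at 12.7, 11.4, 18.7, 15.1 and 11.9 FPKM in Control, 24.98, 25.5, 19.9, 22.2 and 21.7 FPKM in AngII and 21.1, 28.7, 26.6, 29.4 and 39.4 FPKM in AngII+QDG. No Control library reached either treated group. It rose by 0.69 ± 0.16 in AngII (limma adjusted p = 0.0201) and by 1.00 ± 0.16 in AngII+QDG (adjusted p = 0.00262), ratios of group means of 1.64 and 2.08. Without AngII 2 the call in AngII was lost (adjusted p = 0.0542), as it was after quantile normalization (log2 change 0.52, adjusted p = 0.0700), after median scaling (0.42, adjusted p = 0.141) and with the replicate block (adjusted p = 0.0516), while that in AngII+QDG held with each library left out (adjusted p up to 0.00834). With the balance as a covariate its changes were of like size, at 0.83 ± 0.26 and 1.16 ± 0.28, without passing (adjusted p = 0.791 and 0.438).

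Gm4544, at chr15:102657111-102660468 on the plus strand, stood at 4.89, 6.39, 4.30, 5.66 and 5.98 FPKM in Control, 4.52, 4.19, 3.68, 3.78 and 3.77 FPKM in AngII and 2.82, 4.26, 2.71, 3.07 and 2.52 FPKM in AngII+QDG. The highest AngII+QDG library lay just under the lowest Control library. Gm4544 fell by 0.67 ± 0.13 in AngII+QDG against Control (limma adjusted p = 0.00643), and this held with each library left out (adjusted p up to 0.0208) and without Control 3 and Control 5 (adjusted p = 0.0184). Its nearest protein-coding gene, Atp5g2, a subunit of mitochondrial ATP synthase 2396 nt away, fell by 0.44 ± 0.11 (adjusted p = 0.0146), from 520 to 381 FPKM. With the balance as a covariate the log2 change of Gm4544 was -0.69 ± 0.23 (adjusted p = 0.620). Libraries of the groups did not overlap for 5 members higher and 4 lower in AngII+QDG against Control, shares of 4.42 and 3.54% beside 12.2 and 1.66% of all tested genes. The 4 lower ones were H19, Gm4544, Gm49207 and A330069E16Rik, and the 5 higher ones Gm5532, 4930429F24Rik, Gm26809, Dubr and Gm7292. For AngII against Control the counts were 5 (Malat1, Gm5532, Gm7292 and, named after their values were seen, Gm17281 and Gm39214) and 1 (Gm49207), shares of 4.42 and 0.885% beside 10.2 and 0.997%.

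Gm26809, at chr6:18844220-18847360 on the plus strand, lies 1219 nt from Lsm8, a gene of a complex that binds U6 RNA. Its levels were 0.230 to 2.26 FPKM in Control, 2.10 to 4.21 FPKM in AngII and 2.52 to 4.35 FPKM in AngII+QDG, so Control 4 alone reached into the AngII range. It rose by 0.90 ± 0.23 in AngII (limma adjusted p = 0.0264) and by 1.02 ± 0.23 in AngII+QDG (adjusted p = 0.0100). With the balance as a covariate the changes were -0.03 and -0.01, and without Control 3 and Control 5 they were 0.57 (adjusted p = 0.129) and 0.69 (adjusted p = 0.0525). The call in AngII was also lost without Control 3, AngII 2, AngII 4 or AngII 5 (adjusted p up to 0.0678), and with only Control and AngII in the fit (adjusted p = 0.0638). Lsm8 rose in AngII+QDG against Control by 0.50 ± 0.14 (adjusted p = 0.0249).

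4930429F24Rik, at chr9:79793641-79803235 on the plus strand, starts 134 nt from the start of Tmem30a, which runs the other way and encodes a subunit of lipid flippases of the cell membrane. Both genes rose in AngII+QDG against Control, so the sequence between them is shown. It is the RefSeq promoter of 4930429F24Rik at chr9:79793391-79793690 (GRCm38.p6, plus strand), and the capitals mark the 133 bases between the 2 starts.
4930429F24Rik promoter: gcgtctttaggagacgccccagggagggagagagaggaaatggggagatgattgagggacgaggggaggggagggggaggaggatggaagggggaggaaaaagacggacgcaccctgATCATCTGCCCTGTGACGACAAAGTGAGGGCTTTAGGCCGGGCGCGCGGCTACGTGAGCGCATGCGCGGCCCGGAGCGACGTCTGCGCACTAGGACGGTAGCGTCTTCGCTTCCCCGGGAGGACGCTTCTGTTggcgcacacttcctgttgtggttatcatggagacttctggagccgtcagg
The marked bases were 65.4% G or C and held 18 CG pairs. On either strand, the window held no TATA box (searched as TATAAA) and no GC box (searched as GGGCGG).

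4930429F24Rik stood at 3.04, 1.87, 2.36, 3.54 and 2.96 FPKM in Control, 3.30, 5.38, 3.77, 4.12 and 4.02 FPKM in AngII and 4.51, 3.55, 4.45, 4.76 and 5.35 FPKM in AngII+QDG. The lowest AngII+QDG library and the highest Control library were almost level. The gene rose by 0.57 ± 0.15 in AngII+QDG (limma adjusted p = 0.0186), and its change of 0.45 in AngII did not pass (adjusted p = 0.0557). Tmem30a rose in both, from 10.1 FPKM in Control to 16.8 FPKM in AngII (log2 change 0.66, adjusted p = 0.0218) and 19.4 FPKM in AngII+QDG (log2 change 0.86, adjusted p = 0.00471). Without Control 3 and Control 5 the lincRNA's call was lost (log2 change 0.55, adjusted p = 0.0610), and with the balance as a covariate its change was 0.28 (adjusted p = 0.779). It was also lost after quantile normalization (log2 change 0.29, adjusted p = 0.237) and after median scaling (0.30, adjusted p = 0.221).

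Such head-to-head pairs were common. Among the members, 21 started within 1000 nt of a protein-coding gene on the opposite strand that runs away from them, and 19 of those neighbours were tested. In AngII against Control 1 of the 21 lincRNAs and 4 of the 19 neighbours were called, and in AngII+QDG against Control 1 and 7, where 13.5 and 18.6% of all tested genes were called. The median log2 change in AngII was -0.02 for these lincRNAs and 0.38 for their neighbours, and in AngII+QDG against Control -0.05 and 0.28. Over all 113 members, whatever the direction of the neighbour, 81 different nearest protein-coding genes were tested. The medians were 0.04 for the lincRNAs and 0.32 for these neighbours in AngII, and 0.00 and 0.24 with both agents. Of the 81 neighbours, 14 and 20 were called, where 13.5 and 18.6% of all tested genes were. Neighbours here and above were read from the fit of all 15 libraries only. Whether a lincRNA and its neighbour change together was not tested. Gm44899, at 266 nt from Zfp592, was the pair's lincRNA called in AngII: it stood at 1.05 to 3.90 FPKM in Control and 3.55 to 3.94 FPKM in AngII and rose by 0.65 ± 0.19 (limma adjusted p = 0.0390), and Zfp592 did not pass (log2 change 0.41, adjusted p = 0.0517). The Gm44899 call ended in 8 of 15 fits that left out 1 library, those without Control 1, 2 or 5 or any AngII library (adjusted p up to 0.0793).

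The remaining calls ended in some of the fits that left out 1 library. Gm49207 fell by 0.91 ± 0.23 in AngII (limma adjusted p = 0.0254) and by 0.76 ± 0.23 in AngII+QDG (adjusted p = 0.0328), and no treated library overlapped Control, at 4.64 to 8.27 FPKM. It is a single-exon gene of 279 nt, 96.1% of which is a 99.6% identical copy of a retained-intron transcript of the chaperone gene Ahsa1, so its reads may be shared; Ahsa1 itself was not called (log2 changes 0.06 and -0.08). Both calls were lost without Control 3 and Control 5 (adjusted p = 0.0781 and 0.0759). They also ended without Control 2, AngII 2 or AngII 4 in AngII (adjusted p up to 0.0650) and without Control 2, Control 3 or AngII+QDG 1 in AngII+QDG (adjusted p up to 0.0856). Gm12295 rose by 0.49 ± 0.15 in AngII (adjusted p = 0.0469) and lies 7665 nt from Myocd, the cardiac and smooth muscle coactivator myocardin. That call ended in 12 of 15 fits, which left out Control 2, 3 or 5, any AngII library, or any AngII+QDG library but the first (adjusted p up to 0.108).

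Gm6416 rose by 0.40 ± 0.11 in AngII+QDG (limma adjusted p = 0.0253), with a mean of 0.80 FPKM in Control and 1.37 FPKM in AngII+QDG, and its call ended without Control 1, Control 5, AngII+QDG 2, 3 or 5 (adjusted p up to 0.0569). Dubr, a lincRNA known from muscle precursor cells, rose by 0.44 ± 0.14 in AngII+QDG (adjusted p = 0.0415). It was named after its values were seen, as a called member outside the naming rule. Its call ended in 12 of 15 fits (adjusted p up to 0.0974): all those without 1 AngII+QDG library, and those without Control 1, 2, 3 or 5 or AngII 1, 2 or 4. Without Control 3 and Control 5 together, the calls of Gm6416 (adjusted p = 0.101), Dubr (0.181), Gm12295 (0.234) and Snhg20 (0.133) were lost. Quantile normalization and median scaling ended the calls of Gm6416 (adjusted p = 0.386 and 0.483), Dubr (0.417 and 0.332), Gm12295 (0.310 and 0.379) and Gm44899 (0.184 and 0.172). The replicate block and the fit of only the 2 groups compared also ended these 4 calls and those of Snhg20 and Gm49207 in AngII (adjusted p 0.0528 to 0.0917), and the block that of Gm49207 in AngII+QDG (0.0586). With voom the calls of Gm12295 (0.246) and Gm44899 (0.0584) in AngII and of Gm49207 in AngII+QDG (0.0569) were lost. The Gm12295 call also ended when genes under a mean of 1 FPKM were left out (adjusted p = 0.0511). That of Gm49207 in AngII+QDG ended after rescaling without 2 ribosomal RNA-like genes and the mitochondrial genes, a setting chosen after seeing the data (0.0505). In each of the 15 libraries exactly 1 of Dubr's transcripts of 2052 and 2105 nt was listed at 0, the 2052-nt one in 4 Control, 2 AngII and 2 AngII+QDG libraries.

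**Figure D2:**
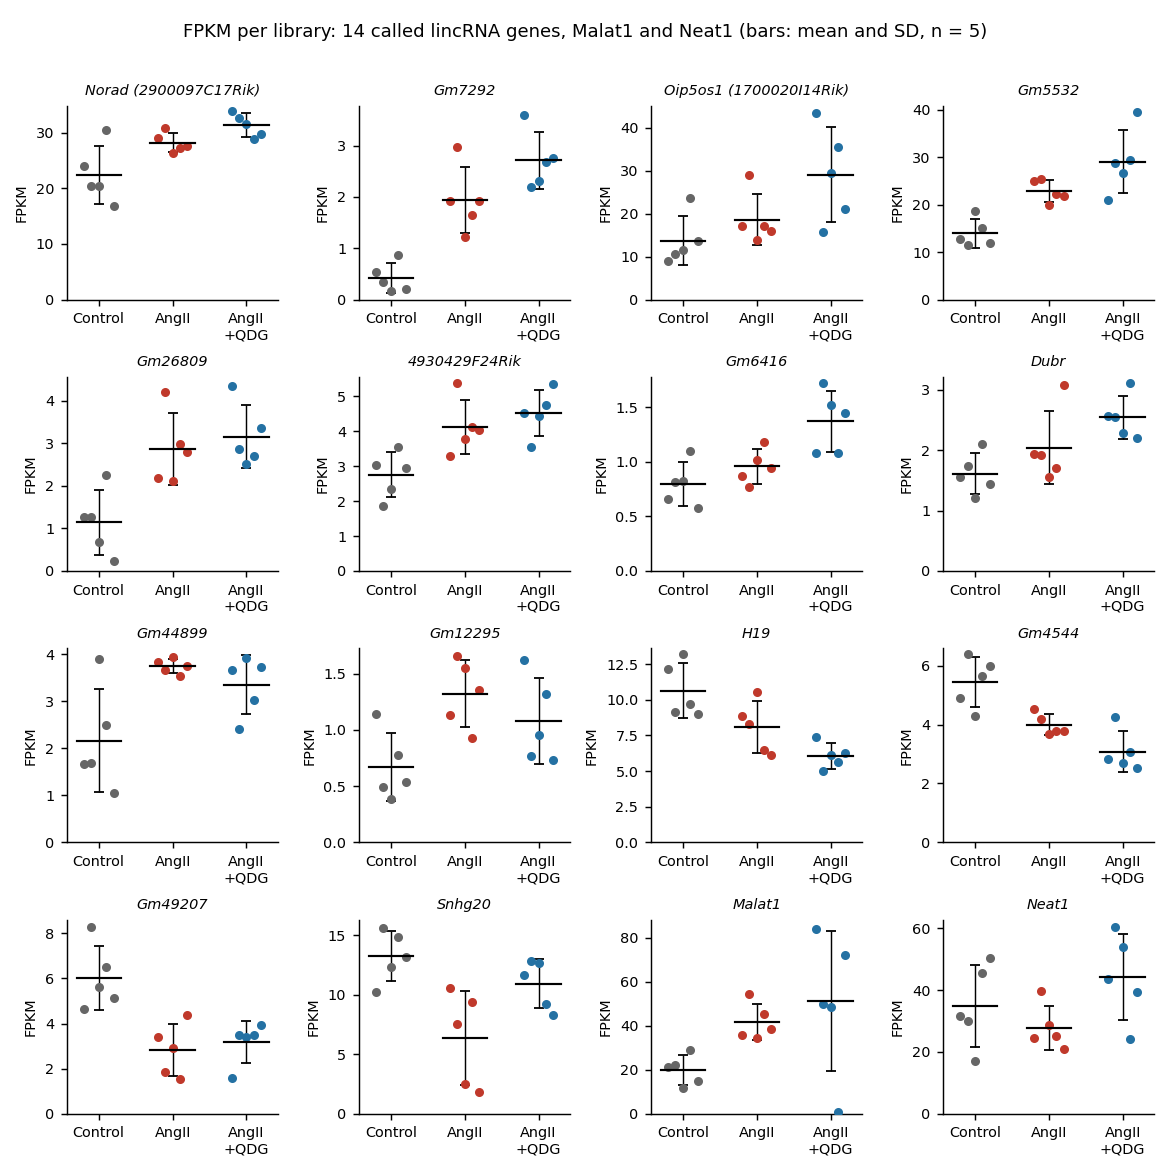
Each panel plots FPKM (y axis) by group (x axis) for 1 gene, the 14 called lincRNA genes and Malat1 and Neat1, with 1 point per library and bars for the mean and SD (n = 5). Gm7292 and Gm5532 do not overlap between Control and either treated group, and 1 AngII+QDG library holds Malat1 at 0.882 FPKM.

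**Figure D3:**
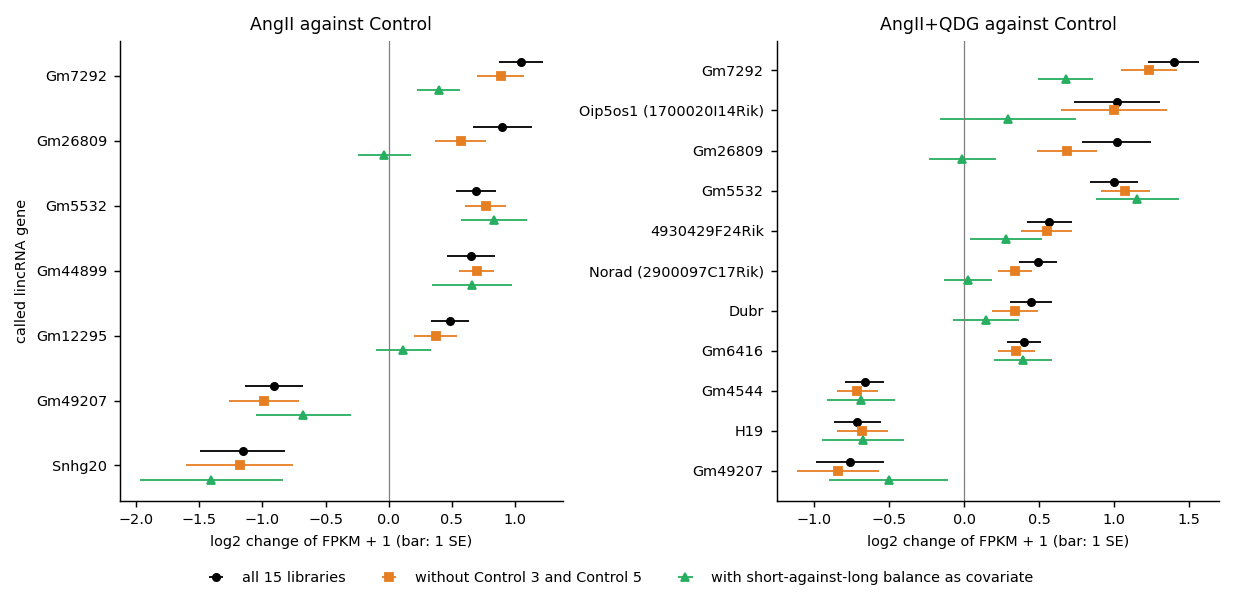
The log2 changes of FPKM + 1 (x axis, with 1 SE) of the called lincRNA genes (y axis) are plotted for all 15 libraries, without Control 3 and Control 5, and with the short-against-long balance added, for both comparisons against Control. With the balance added Gm26809 moved to -0.03 and -0.01, while Gm5532, Gm4544 and H19 stood at 1.16, -0.69 and -0.67 in AngII+QDG, none of which passed (limma adjusted p = 0.438, 0.620 and 0.698).

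QDG on top of AngII gave no called lincRNA gene. By limma 0 of 113 members passed in AngII+QDG against AngII, as did 0 of 12238 tested genes (0.0%), and limma voom on recovered fragments also called 0 members. With all transcripts listed in any file, 15 genes were higher and 18 lower of 12343 tested, and 0 of them were members. In that setting a transcript missing from a file counted as 0. Because the AngII+QDG files list another set, these calls cannot be told apart from effects of the listing. At an unadjusted p under 0.05 there were 10 members (8.85%) and 472 of all tested genes (3.86%). The member median was 0.01 and that of all genes -0.02 on the log2 scale, and the median standard error of a member was 0.19. The smallest p was that of Gm30556, a lincRNA of unknown role, with a log2 change of 1.49 ± 0.43 (adjusted p = 0.954). It was at 5.01, 0.814, 0.941, 0.384 and 0.0312 FPKM in AngII and at 3.55, 3.99, 6.06, 6.02 and 3.67 FPKM in AngII+QDG, so AngII 1 alone was as high as the AngII+QDG libraries. Control libraries held 3.09, 0.811, 6.26, 3.82 and 1.98 FPKM, a range that covers most of both.

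Gm26899 and Gm43672 also had a small unadjusted p in this comparison. Gm26899, which overlaps Zfp106 on the opposite strand and shares 81.8% of its transcript with it, had a mean of 2.15 FPKM in AngII and 1.04 FPKM in AngII+QDG (log2 change -0.63, limma adjusted p = 0.991). The sources used here do not say whether the libraries keep strand, so reads of the pair cannot be told apart. Zfp106 itself had means of 7.89 and 21.3 FPKM, with AngII+QDG libraries from 7.83 to 39.9 FPKM, and did not pass. Gm43672, which starts 510 nt from Tbl1xr1, had means of 18.2, 16.9 and 13.98 FPKM in Control, AngII and AngII+QDG, and its log2 changes of -0.26 against AngII and -0.35 against Control did not pass (adjusted p = 0.999 and 0.0542). Libraries did not overlap for 0 members higher and 1 lower with QDG added (0.0 and 0.885%; the 1 was AU020206, named after its values were seen), beside 0.368 and 0.727% of all tested genes.

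Levels among the members spanned a wide range. The median member stood at a mean of 2.70 FPKM, 43 members were at 1 to 2 FPKM, 50 at 2 to 10 FPKM and 20 at 10 FPKM or more. The 12 with the highest means were AY036118, Gm44386, Gm10076, 1810058I24Rik, Gm42418, Malat1, Neat1, Norad, Gm5532, Snhg6, Oip5os1 and Lsmem2. In the order from Malat1 (37.6 FPKM) through Neat1 (35.6 FPKM) and Norad (27.3 FPKM) to Gm5532 (22.0 FPKM), Snhg6 (21.7 FPKM) and Oip5os1 (20.4 FPKM), each step down was smaller than the SD over the 15 libraries of at least 1 gene of the pair.

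**Figure D4:**
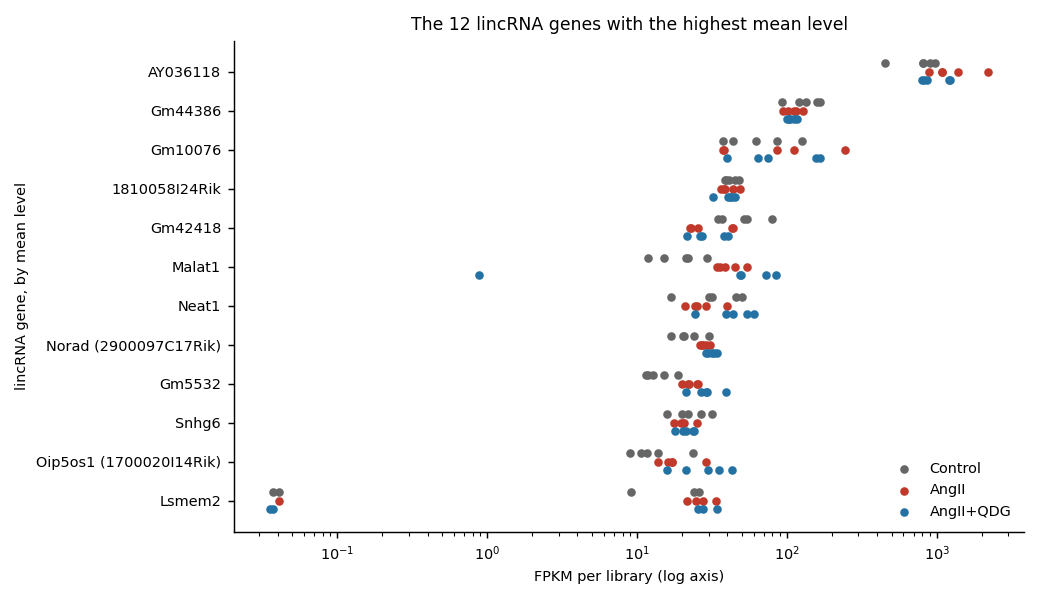
FPKM in each library (x axis, log scale) is plotted for the 12 lincRNA genes with the highest mean (y axis), with points coloured by group. AY036118 lies above 400 FPKM in every library, and Malat1 and Lsmem2 each have libraries far under the rest.

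AY036118 was the highest, at 787 ± 200 FPKM for Control, 1334 ± 523 FPKM for AngII and 981 ± 212 FPKM for AngII+QDG (SD, n = 5). All 923 nt of it lie inside the ribosomal RNA gene CT010467.1 on the same strand of chromosome 17, so its signal cannot be told apart from ribosomal RNA left after depletion. It stood at 3.06 ± 0.16, 2.86 ± 0.04 and 2.83 ± 0.11 times the FPKM of CT010467.1 in the 3 groups, a nearly fixed ratio. Gm42418, which RefSeq names Rn18s-rs5 and lists as a pseudogene, covers the same locus on the opposite strand, and had means of 51.5, 31.5 and 30.7 FPKM. Its log2 changes of -0.69 in AngII and -0.70 in AngII+QDG against Control did not pass (limma adjusted p = 0.0886 and 0.0743), and those of AY036118 were 0.73 and 0.34 (adjusted p = 0.0622 and 0.367). Together with Gm26917 these loci made up 531 to 1025 FPKM of the summed member level of 1380 to 1807 FPKM in Control. The other 110 members summed to 762 ± 56.4 FPKM for Control, 795 ± 93.4 FPKM for AngII and 825 ± 50.4 FPKM for AngII+QDG, about 0.106, 0.124 and 0.128% of all FPKM.

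Gm10076 is a copy of Rpl41, the gene of a ribosomal protein: its 383-nt transcript was 99.5% identical to Rpl41, and RefSeq lists it as a pseudogene. In AngII 2 and AngII+QDG 1 it was at its highest, 245 and 167 FPKM, and in those same 2 libraries Rpl41 was at 11.3 and 0.0328 FPKM, against 248 to 545 FPKM in the other 13. Levels of Gm10076 are therefore uncertain, and no direction is given. In all, 13 members had a transcript or gene at least 95% identical to at least 50% of their length.

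Some members fell far under their usual level in 1 or more libraries. Lsmem2 was at 0.0354 to 0.0410 FPKM in 5 libraries (Control 2, Control 4, AngII 2, AngII+QDG 2 and AngII+QDG 5) and at 9.15 to 34.0 FPKM in the other 10. Tmem250-ps was at 3.83 to 6.61 FPKM in 6 libraries and at 17.9 to 25.8 FPKM in the other 9. AU020206 was at 0.184 FPKM in AngII+QDG 1 and at 3.66 to 8.96 FPKM in the other 14. Tmem250-ps and AU020206 were picked after their values were seen, as was Gm20300 further on. RefSeq lists 6 members as protein-coding, among them Lsmem2, Tmem250-ps and 1810058I24Rik, of 83 that could be matched by name. 1810058I24Rik had one of the steadiest levels, at 42.2 ± 4.05, 41.0 ± 5.26 and 40.5 ± 5.09 FPKM.

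**Figure D5:**
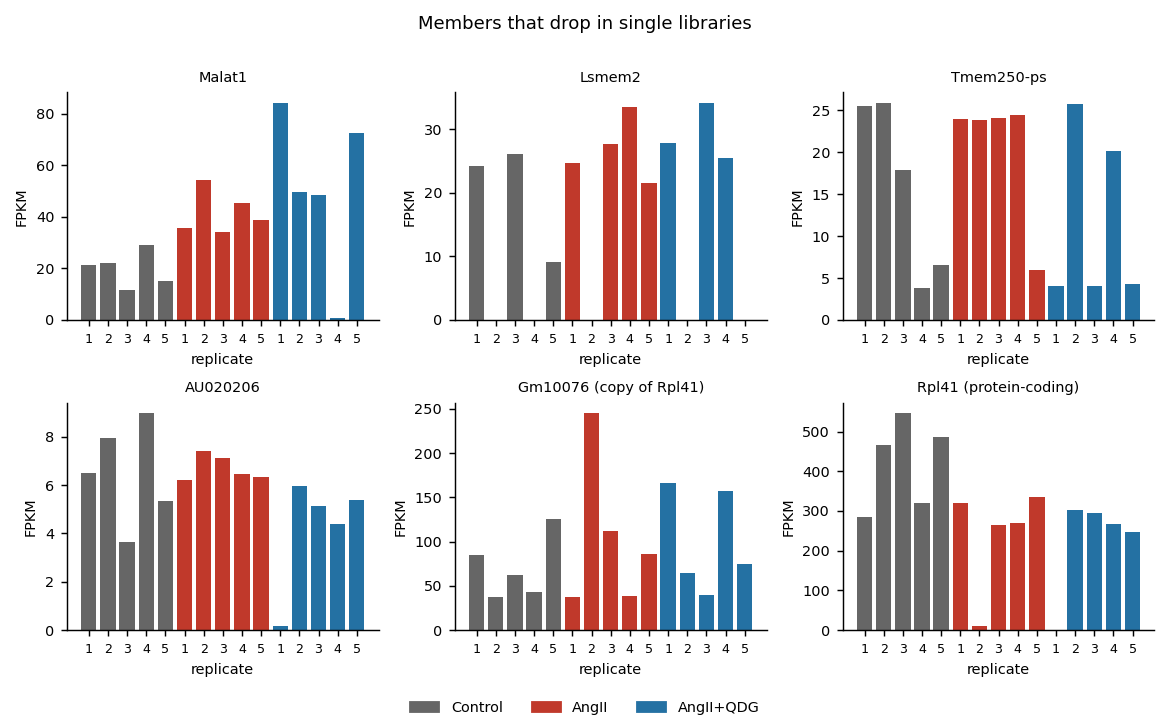
Bars give FPKM (y axis, from 0) in each library (x axis, replicates 1 to 5 of each group in turn) for Malat1, Lsmem2, Tmem250-ps, AU020206, Gm10076 and the protein-coding gene Rpl41. Rpl41 falls to 11.3 and 0.0328 FPKM in the 2 libraries where Gm10076 is highest.

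Replicates of the members varied about as much as those of other genes in Control, and their median variation was higher in both treated groups. The median coefficient of variation for the members was 31.8, 25.5 and 24.02% (Control, AngII, AngII+QDG), and for all tested genes 31.4, 20.6 and 20.4%. For 8 members it was under 20% in every group. The steadiest was Gm20300, at 4.31 to 6.10, 5.17 to 6.66 and 5.51 to 6.58 FPKM in the 3 groups, and Norad was among the first 6.

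Members were short. Their longest measured transcript had a median of 1189 nt, against 2742 nt for all tested genes, and 48 members were under 1000 nt, 50 from 1000 nt to under 3000 nt and 15 at 3000 nt or more. In AngII against Control the median log2 change rose with length class both for members (-0.10, 0.07 and 0.26) and for all tested genes (-0.12, 0.13 and 0.34). With both agents against Control the medians were -0.03, -0.02 and 0.32 for members and -0.15, 0.08 and 0.34 for all genes. The short-against-long balance of the libraries moves with the same comparisons, and its part in these medians was not tested. Between AngII+QDG and AngII the member medians were 0.00, 0.02 and 0.06.

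By annotation, 26 members had a single exon in their longest transcript, 84 were measured by 1 transcript and 100 had a provisional name. No member lay on the X or Y chromosome, 68 lay within 10000 nt of a protein-coding gene, and 13 overlapped one. RefSeq promoters (250 bases before to 50 after the start) were found for 68 members, 78 promoters in all. Their median share of G and C was 51.2%, against 52.7% over 32851 promoters. On either strand, TATAAA was in 16.7% of them against 13.6% of all promoters. The letters GGGCGG were in 35.9% against 35.7%, and the letters TGACTCA in 5.13% against 5.20%.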

How the data were processed

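Heart RNA of 15 mice was sequenced after depletion of ribosomal RNA, per the labels' protocols, and the 5 mice per group come from the series' design text. What the authors deposited is a transcript table for each library. The values the authors deposited are taken as FPKM per transcript, a unit inferred from the values because, per the file headers, none is named: value times length summed to nearly the same total in every library (highest over lowest 1.08). GRCm38 and limma come from the submitters' processing notes, and no source used here names the aligner or counting tool.

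Transcripts listed in all 15 files (29996, of which 22463 were named with GENCODE M21) were summed to genes. The test took the 12238 genes, all 113 members included, that reached 0.5 FPKM in 5 libraries or more. It used limma 3.58.1 (R 4.3.3) on the log2 of FPKM with a pseudocount of 1, with trend and robust variance, 1 fit over 15 libraries, 12 residual degrees of freedom and Benjamini-Hochberg adjustment over all tested genes at 0.05. Depth came to 51.6 to 78.3 (units of 1000000 steps, 1 step taken as 1 fragment). Fragments for limma voom were recovered from FPKM times length, which lay within 0.1 of a whole step for 96.4 to 97.1% of values. Near copies were found with blastn 2.17.0. The limma fit was tested on simulated data with the measured spread of each gene. It recovered 66 to 67% of log2 changes of 1 and 88 to 98% of changes of 2. For AngII+QDG against AngII these shares were 66 and 98%, so changes of about 1 or less can be missed there. Tables and plots used matplotlib 3.10.9, pandas 2.3.3 and numpy 2.4.6 under Python 3.11.15.

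Named genes were the 12 highest members, up to 6 with the smallest p per direction and comparison, members on a list of known lincRNAs, microRNA hosts, the 2 genes on each side of the level limit and, outside the members, partner genes and neighbours. The members, lists and rules were chosen with earlier results of these data known. Other settings covered the pseudocount, filters, transcript set, scaling, the replicate number as a block, fits of 2 groups, the balance covariate, voom and libraries left out. Separate mice for the replicates are stated only as a number per group, so p-values measure the spread between these samples.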

Additional observations from a re-analysis of the deposited data

Results flagged for a closer look

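Within groups of 5, a library far from the other 4 is expected by chance in about 1 of 20 groups; 111 groups of named members were looked at and 6 stood out. Oip5os1 (1700020I14Rik) was at 28.9 FPKM in AngII 2, against 13.8 to 17.2 FPKM in the other AngII libraries. Gm49207 was at 1.57 FPKM in AngII+QDG 1, against 3.42 to 3.91 FPKM in the rest of that group. A330069E16Rik was at 1.15 FPKM in Control 1, against 1.60 to 1.72 FPKM. Gm30556 was at 5.01 FPKM in AngII 1, against 0.0312 to 0.941 FPKM. Gm26899 was at 3.03 FPKM in Control 5, against 1.16 to 1.57 FPKM. Gm12092 was at 1.02 FPKM in AngII+QDG 1, against 0.647 to 0.743 FPKM. No library held more than 2 of these values, and AngII+QDG 1 held 2.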

How the results depend on the processing

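Counts of called members, higher and lower, were 5 and 2 in AngII and 8 and 3 for AngII+QDG, both against Control, and 0 in AngII+QDG against AngII under every setting run. They stayed the same with a pseudocount of 0.1, with no filter and with all transcripts of any file. They became 2 and 7 (AngII) and 4 and 10 (AngII+QDG) after quantile normalization, 2 and 8 and 3 and 12 after median scaling, 0 throughout with the balance covariate, and 3 and 0 (AngII) and 3 higher (AngII+QDG) without Control 3 and Control 5. With only the 2 groups compared 0 were lower in AngII and 4 higher in AngII+QDG, and with voom 3 were higher in AngII. Rescaled without 2 ribosomal RNA-like genes and the mitochondrial genome genes, a setting chosen after seeing the data, 10 were higher in AngII and 14 in AngII+QDG. Other ribosomal RNA signal stayed in the total used for that scaling. With 1 library left out the counts ran from 1 to 9 higher and 0 to 3 lower in AngII, and from 5 to 13 higher and 2 to 7 lower in AngII+QDG. The shares of all tested genes called in these fits ran from 2.93 to 20.7% in AngII and from 10.6 to 23.9% in AngII+QDG. With the replicate number as a block, 2 were higher and 0 lower in AngII, and 6 and 3 in AngII+QDG; same-numbered libraries correlated at -0.10 to 0.08 and only 2 of 15 correlated best with their own number, so the numbers show no pairing.

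Under the balance covariate these log2 changes turned sign: in AngII against Control Gm26809 (-0.0349), Gm44386 (0.0901), Malat1 (-0.22) and Norad (2900097C17Rik, -0.0786), and in AngII+QDG against Control Gm26809 (-0.0143), Gm44386 (0.10), Gm42418 (0.27), Malat1 (-0.79) and D930016D06Rik (-0.0519). The cause was not tested. Of named changes that passed in no setting, 18 of 20, 10 of 27 and 10 of 18 changed sign in at least 1 setting in AngII against Control, AngII+QDG against AngII and AngII+QDG against Control. The unit and depth are inferred from the values, levels near 1 FPKM of short transcripts rest on few fragments, and transcript levels in single libraries can be 0 where a near copy or another transcript of the gene is not.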
